A study of Danio rerio with 6 samples.

Results

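The sodium-potassium ATPase is the membrane pump that moves sodium out of a cell and potassium in, at the cost of ATP, and it is one of the main consumers of energy in the brain. A working pump joins a catalytic alpha subunit, which binds ATP and carries the ions, to a glycosylated beta subunit, which brings the alpha subunit to the membrane. In the mammalian brain alpha 1 is made by most cells, alpha 2 mainly by astrocytes and alpha 3 by neurons, while beta 1 is widespread and beta 2, once named adhesion molecule on glia, is prominent in astrocytes. Zebrafish carry duplicated copies of many of these genes, marked a and b.

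Of 10 listed subunit genes, 8 had a row of their own among the 19260 genes measured, chosen as rows of the deposited table whose platform annotation names that gene alone. They are 2 alpha genes, atp1a1b and atp1a3b, and 6 beta genes, atp1b1a, atp1b1b, atp1b2a, atp1b2b, atp1b3a and atp1b3b. atp1a3a shared its 1 row with atp1a3b, and atp1a2a had no row with its name and was not analysed here. The choice of genes used no measured value of a group, but it was made with earlier results of these data known.

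RNA came from whole brains of adult Tübingen zebrafish about 1 year old, of unspecified sex, with 1 brain on each of 6 Affymetrix Zebrafish Gene 1.0 ST arrays. The hypoxia group was 3 fish kept singly for 3 h in water depleted of oxygen with nitrogen, at 1.20 ± 0.6 mg/l dissolved oxygen, and the normoxia group was 3 fish at ambient oxygen, at 6.6 ± 0.45 mg/l (the labels do not say what these errors are). The labels give death by cold shock and removal of the brain after each hypoxia trial, and they do not say how the normoxia fish were handled. Numbers 1 to 3 name the fish of each group. Values are log2 RMA values, so a difference of 1 is a doubling, and differences are hypoxia minus normoxia. Levels of different genes are not set against each other, because probes differ in brightness. In a whole brain, fewer cells of a type and less RNA per cell cannot be told apart.

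The arrays differed in spread, in the median over all genes and in the median of bright genes. The median over all genes was 7.33, 7.32 and 7.38 in hypoxia 1 to 3, against 7.60, 7.40 and 7.45 in normoxia 1 to 3. It was thus lower in every hypoxia array than in any normoxia array. The SD of values over all genes was 1.25, 1.34 and 1.42 in hypoxia 1 to 3, against 1.60, 1.27 and 1.47 in normoxia 1 to 3, and the median level of genes with a mean of 11 or more was highest in normoxia 1 and lowest in hypoxia 1. Neuron markers fixed as a list averaged 10.13 to 10.51 in hypoxia and 10.08 to 10.90 in normoxia, and skeletal muscle markers averaged 6.70 to 6.85 in hypoxia and 6.34 to 7.24 in normoxia. Pituitary markers averaged 9.72 in hypoxia 3 and 10.32 in normoxia 3, against 6.34 to 7.15 in the other 4 brains.

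All 8 subunit genes had a lower mean in hypoxia, but no subunit gene passed the test over all genes, and the differences ran from -0.78 for atp1b2b to -0.06 for atp1b3a. The beta genes atp1b2b and atp1b1b and the alpha gene atp1a1b were lower in every hypoxia brain than in any normoxia brain. The median over all genes was separated in the same direction. After quantile normalization of gene values atp1b2b and atp1b1b kept this separation and atp1a1b did not. The share of all genes so separated was not computed after that normalization, so whether the subunit genes exceed it cannot be told. The threshold was a limma adjusted p of 0.05, with Benjamini-Hochberg adjustment over 19260 genes, and 0.00519% of genes passed it. The adjusted p of the 8 genes lay between 0.72 and 0.945. A lower mean in hypoxia was common, at 61.0% of all genes and 82.5% of the 228 genes with a mean level of 11 or more, a range that holds 5 of the 8. The groups did not overlap, with hypoxia lower, in 3 of the 8 subunit genes, in 9.01% of all genes and in 10.1% of those with a mean of 11 or more. An unadjusted limma p under 0.05 with hypoxia lower was found for 1 of the 8, atp1b2b, and for 5.76% of all genes, or 6.66% in either direction. The median difference of the 8 was -0.28, against -0.08 over all genes and -0.19 over the genes with a mean of 11 or more.

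**Figure D1:**
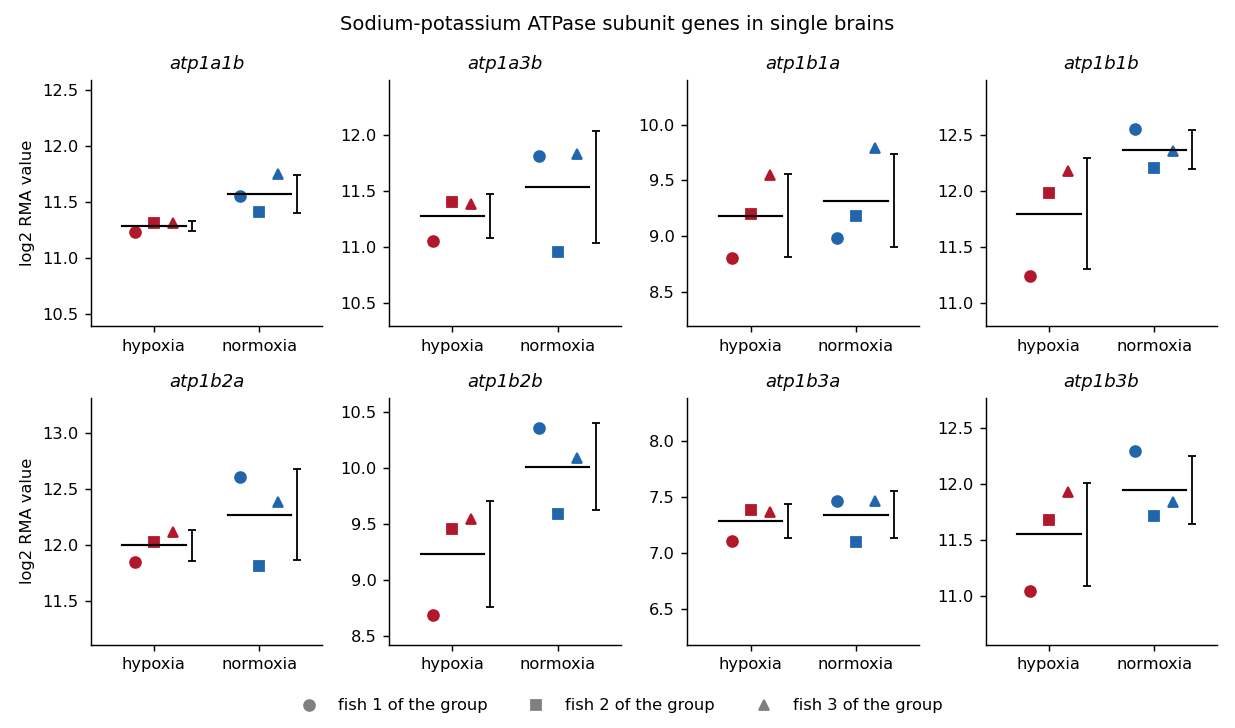
Log2 RMA values of the 8 subunit genes in each brain, with hypoxia on the left in red and normoxia on the right in blue. Horizontal lines are group means, bars beside them the SD of 3 fish, and every panel spans the same number of log2 units; atp1a1b, atp1b1b and atp1b2b have no overlap between groups.

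Among alpha genes, atp1a1b is an alpha 1 type subunit that is known as a marker of radial glia in the zebrafish brain. Its values were 11.23, 11.31 and 11.31 in hypoxia, against 11.55, 11.41 and 11.75 in normoxia. The hypoxia brains lay close together and all 3 were below the lowest normoxia brain, with normoxia 2 the nearest. The mean was 11.28 ± 0.05 in hypoxia and 11.57 ± 0.17 in normoxia (SD, n = 3 fish each). The difference was -0.29 (SE 0.18, limma adjusted p = 0.737). The exact two-sided permutation p for this gene was 0.1, the smallest that 3 against 3 fish allow. The 95% confidence interval of the difference was -0.69 to 0.11. After quantile normalization the atp1a1b values were 11.58, 11.37 and 11.22 in hypoxia, against 11.24, 11.58 and 11.53 in normoxia, which overlap, and the difference was -0.06.

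atp1a3b encodes an alpha 3 subunit, the catalytic form that mammalian neurons use to restore ion gradients after firing. It read 11.05, 11.40 and 11.38 in hypoxia, against 11.81, 10.95 and 11.83 in normoxia. The groups overlapped, since normoxia 2 was the lowest of all 6 brains while normoxia 1 and normoxia 3 were the highest. The difference was -0.25 (SE 0.26, limma adjusted p = 0.813), with a 95% confidence interval of -0.85 to 0.34. It was -0.54 without normoxia 2 and -0.10 without normoxia 3, and it turned to 0.03 with array spread as a covariate.

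The row that names both alpha 3 genes, atp1a3a and atp1a3b, had the opposite sign. It read 12.29, 12.42 and 12.64 in hypoxia, against 12.54, 11.99 and 12.40 in normoxia, with a difference of 0.14 and overlapping groups. What each of the 2 genes adds to that row cannot be told apart. Tested among all 75212 rows of the table, the shared row had a limma adjusted p of 0.911.

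The alpha 3 gene was compared with the radial glia alpha gene inside each brain, which cancels a shift of the whole array. The value of atp1a3b minus that of atp1a1b, relative to its mean over the 6 brains, was -0.16, 0.11 and 0.09 in hypoxia, against 0.28, -0.44 and 0.10 in normoxia. Both groups spread around 0, and their means differed by 0.03 on the log2 scale, less than the SD of 0.15 in hypoxia or 0.37 in normoxia (n = 3 fish each). The difference turned in sign with the array left out, at 0.18 without normoxia 1 and -0.18 without normoxia 2, and it was 0.26 with array spread as a covariate. This contrast was planned over both alpha 3 genes and over atp1a2a as well, so it rests on 1 gene a side.

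Beta 1 is the most widespread beta subunit in mammals. atp1b1b read 11.24, 11.99 and 12.18 in hypoxia, against 12.56, 12.21 and 12.36 in normoxia. All hypoxia brains were lower than all normoxia brains, but hypoxia 3 and normoxia 2 were almost level and hypoxia 1 stood well below the rest. The mean was 11.80 ± 0.50 in hypoxia and 12.37 ± 0.18 in normoxia (SD, n = 3 fish each). The difference was -0.57 (SE 0.26, limma adjusted p = 0.72). That gene was measured by 2 rows, with differences of -0.45 and -0.70, and its difference was -0.29 without hypoxia 1.

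Its duplicate atp1b1a read 8.81, 9.20 and 9.55 in hypoxia, against 8.99, 9.18 and 9.79 in normoxia. The groups overlapped almost fully, with hypoxia 3 above normoxia 1 and normoxia 2. The difference was -0.13 (SE 0.27, limma adjusted p = 0.903), with a 95% confidence interval of -0.74 to 0.48. Its sign turned after quantile normalization of gene values (0.08), with equal array medians (0.01) and without hypoxia 1 (0.06) or normoxia 3 (0.10).

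Beta 2 is a beta subunit that is prominent in mammalian astrocytes. atp1b2b had the largest difference of the 8, with values of 8.69, 9.46 and 9.55 in hypoxia, against 10.36, 9.59 and 10.09 in normoxia. All hypoxia brains lay below all normoxia brains, with hypoxia 3 just under normoxia 2. The mean was 9.23 ± 0.47 in hypoxia and 10.01 ± 0.39 in normoxia (SD, n = 3 fish each). The difference was -0.78 (SE 0.29, limma unadjusted p = 0.0233, adjusted p = 0.72). On the linear scale that is 0.58 times the normoxia level, with a 95% confidence interval of the log2 difference of -1.43 to -0.13. It was -0.57 after quantile normalization, -0.64 with equal array medians and -0.47 with array spread as a covariate, and from -0.99 without normoxia 2 to -0.51 without hypoxia 1. The adjusted p was 0.11 or more in every alternative tried for any of the 8 genes.

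The other beta 2 gene, atp1b2a, read 11.85, 12.03 and 12.12 in hypoxia, against 12.61, 11.82 and 12.39 in normoxia. Normoxia 2 was again the lowest brain, and the groups overlapped. The difference was -0.27 (SE 0.23, limma adjusted p = 0.774), and it was -0.06 after quantile normalization, -0.50 without normoxia 2 and -0.11 without normoxia 1.

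Beta 3 is another form of the beta subunit, found in several tissues of mammals. atp1b3b read 11.04, 11.68 and 11.93 in hypoxia, against 12.29, 11.71 and 11.84 in normoxia. Hypoxia 3 lay between the normoxia brains, and hypoxia 1 was the lowest. The difference was -0.40 (SE 0.27, limma adjusted p = 0.75), and it was -0.14 without hypoxia 1.

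Its duplicate atp1b3a read 7.11, 7.39 and 7.37 in hypoxia, against 7.47, 7.10 and 7.47 in normoxia, which overlap. The difference was -0.06 (SE 0.19, limma adjusted p = 0.945), with a 95% confidence interval of -0.49 to 0.38. This gene was the mean of 2 rows that disagreed in sign, at 0.05 for the dimmer row and -0.17 for the brighter one.

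**Figure D2:**
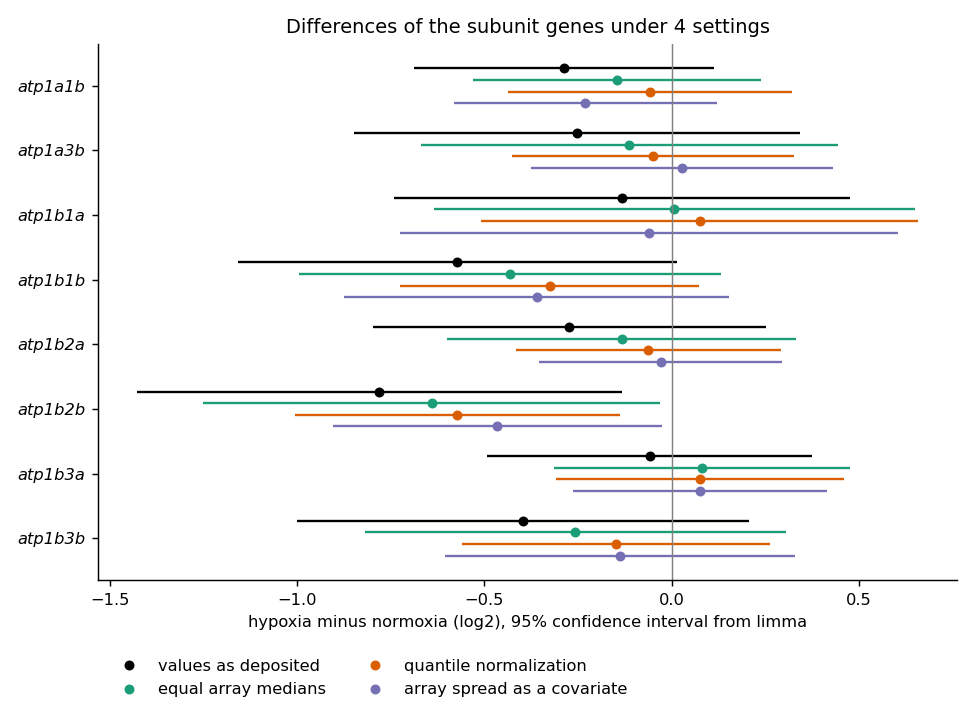
Hypoxia minus normoxia difference (log2) of each subunit gene, with 95% confidence intervals from limma, for values as deposited, equal array medians, quantile normalization and array spread as a covariate. The interval of atp1b2b lies below 0 in all 4 settings, and those of the other 7 genes include 0 in all 4.

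Most of the 8 genes shared much of their variation among brains, within groups as well as between them. Taken as the deviation from each gene's mean over the 6 brains, the median of the 8 was -0.40, -0.09 and 0.02 in hypoxia 1 to 3, against 0.44, -0.06 and 0.30 in normoxia 1 to 3. An exception was atp1b1a, which lay below its mean in normoxia 1, at -0.26, where all the others lay above theirs. Normoxia 1 was the highest brain for 4 genes and normoxia 3 for the other 4, while hypoxia 1 was the lowest for 5 and normoxia 2 for 3. Genes with a mean level of 11 or more moved the same way, with median deviations of -0.32, -0.03 and 0.05 in hypoxia 1 to 3, against 0.31, -0.13 and 0.15 in normoxia 1 to 3. The 2 arrays in which a subunit gene was lowest also had the 2 smallest spreads, 1.25 in hypoxia 1 and 1.27 in normoxia 2, and the 2 in which one was highest had the 2 widest. The part of array spread in the differences was not tested. With other settings the median difference of the 8 was -0.06 after quantile normalization, -0.10 with array spread as a covariate and -0.14 with equal array medians. With equal medians or quantile normalization 6 of the 8 kept a lower mean, while 40.9% and 48.1% of all genes did. Of the 8, 5 had a mean of 11 or more, and the share among such genes was not computed for these 2 settings. Whether 6 of 8 exceeds that share cannot be told.

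**Figure D3:**
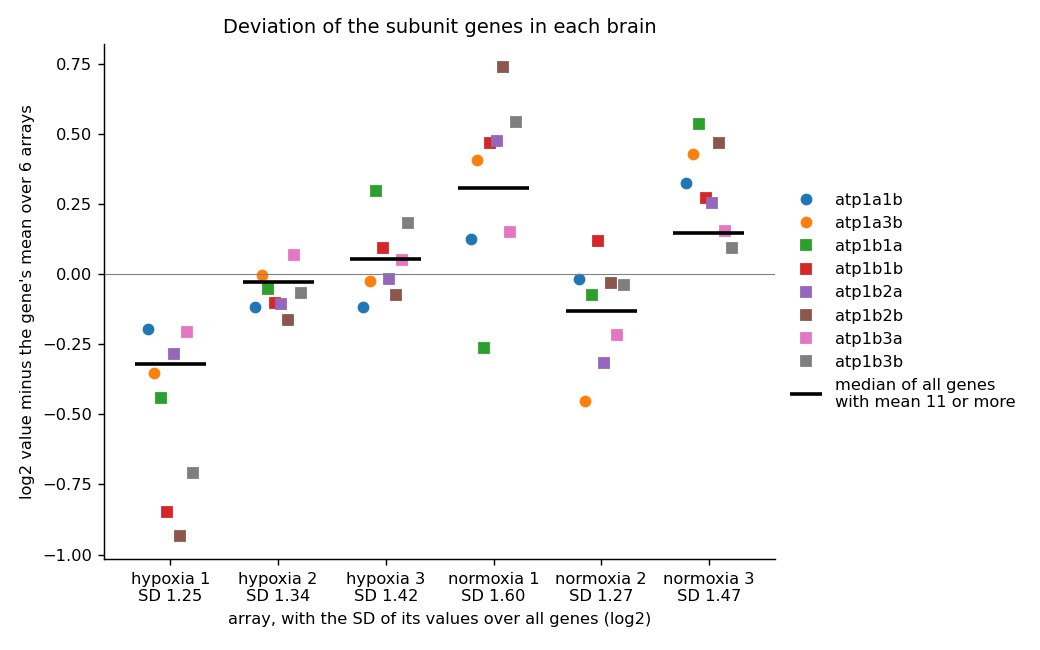
Deviation of each subunit gene from its own mean over the 6 arrays (log2), by array, with circles for alpha and squares for beta genes and a black line for the median of all 228 genes with a mean level of 11 or more. The SD over all genes under each array runs from 1.25 in hypoxia 1 to 1.60 in normoxia 1, and most subunit genes sit high in normoxia 1 and normoxia 3.

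The balance of alpha to beta transcripts was also read inside each brain, as the mean of the 2 alpha genes minus the mean of the 6 beta genes, relative to its mean over the 6 brains. It was 0.30, 0.01 and -0.16 in hypoxia, against -0.09, -0.14 and 0.08 in normoxia. The groups overlapped, and the difference of their means, 0.10, was smaller than the SD of 0.23 in hypoxia or 0.11 in normoxia (n = 3 fish each). It was -0.02 without hypoxia 1, 0.20 without hypoxia 3 and 0.16 without normoxia 3. This contrast was planned over 4 alpha genes and rests on 2. It leaves out the row shared by atp1a3a and atp1a3b, with a difference of 0.14. It also leaves out atp1b4, a further beta gene described below, with a difference of -0.94. The contrast with these included was not computed.

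Genes whose profile over the 6 brains was closest to that of atp1b2b, the subunit gene that varied most (SD 0.58 over 6 arrays), were snx15, a sorting nexin gene, faf2, a gene of endoplasmic reticulum-associated degradation, and tusc3, an oligosaccharyltransferase subunit gene. Their mean absolute difference in deviation from atp1b2b was 0.057, 0.062 and 0.066 log2 units over 6 arrays.

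Other pump genes and pump partners were read from a list of 23, of which 13 were measured. Of these, 7 had a lower and 6 a higher mean in hypoxia, with a median difference of -0.03. Over all genes 61.0% had a lower mean, and the median difference was -0.08. None passed the limma test over all genes. At an unadjusted p under 0.05 there was 1 lower and 2 higher, where 5.76% of all genes were lower and 0.903% higher by that rule. The lower one was atp1b4, which in fish and birds is a beta subunit of the pump and in placental mammals a muscle protein of the nuclear envelope. It read 10.92, 11.23 and 11.60 in hypoxia, against 12.43, 11.95 and 12.18 in normoxia, with no overlap. The difference was -0.94 (SE 0.23, limma unadjusted p = 0.00263, adjusted p = 0.72), and it was -0.73 after quantile normalization and -0.77 without hypoxia 1.

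The 2 higher genes were dim. atp1a1a.5, one of a cluster of alpha 1 type genes, read 6.58, 6.68 and 6.40 in hypoxia, against 5.36, 6.17 and 5.83 in normoxia, a difference of 0.77 (limma adjusted p = 0.72). fxyd2, of a family of small pump regulators, read 6.39, 6.54 and 6.44 in hypoxia, against 5.18, 6.28 and 5.80 in normoxia, a difference of 0.70 (limma adjusted p = 0.72) that was 0.42 without normoxia 1. Both had no overlap between groups, and both were lowest in normoxia 1, the array of widest spread. Of the 13 measured, 2 were higher and 1 lower without overlap, against 2.33% and 9.01% of all genes. The differences of atp1a1a.5 and fxyd2 were 0.68 and 0.60 after quantile normalization. They were 0.54 and 0.43 with array spread as a covariate, and that of atp1a1a.5 was 0.55 without normoxia 1. The neighbouring alpha 1 type genes atp1a1a.3 and atp1a1a.4 had differences of 0.37 and -0.16 with overlapping groups. These paralogs are alike in sequence, and signal shared between their probes was not tested.

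The FXYD regulators fxyd5 (0.04), fxyd6 (-0.03), fxyd6l (-0.16) and fxyd11 (-0.14) had small log2 differences with overlapping groups. fxyd3, for which RefSeq lists fxyd1 and fxyd9 as synonyms and which is outside the list of 23, averaged 8.17 in hypoxia and 8.23 in normoxia. Of the NKAIN genes, which encode membrane proteins that bind the beta 1 subunit, nkain1 was -0.19, nkain4 -0.38 and nkain5 0.49, all with overlap.

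Beside the pump, 3 more lists were read: calcium pumps, carriers driven by the pump's sodium gradient, and genes for potassium uptake and chloride export. None of their members passed over all genes. A lower mean was found for 61.0% of all genes, whose median difference was -0.08, and a limma unadjusted p under 0.05 for 6.66%. For calcium pumps, 4 of 12 measured genes had a lower and 8 a higher mean, with a median of 0.10 and no gene at an unadjusted p under 0.05. The 3 with the smallest p were atp2a1, of the sarcoplasmic reticulum (0.32), and the plasma membrane pump genes atp2b4 (0.25) and atp2b1b (0.21), all with a limma adjusted p of 0.759 or more. The split depended on scaling, with 0 of 12 lower under equal array medians or quantile normalization and 7 without normoxia 2. Under those 2 scalings 40.9% and 48.1% of all genes were lower.

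Of carriers driven by the sodium gradient, 14 of 32 measured genes had a lower and 18 a higher mean, with a median of 0.09. Over all genes 61.0% had a lower mean. slc6a11b, a GABA transporter gene, read 10.18, 10.93 and 10.54 in hypoxia, against 11.22, 10.92 and 11.50 in normoxia, a difference of -0.66 (limma adjusted p = 0.72). The sodium-calcium exchanger gene slc8a3 read 7.75, 7.49 and 7.58 in hypoxia, against 7.24, 7.18 and 7.11 in normoxia. Its relative slc8a4a read 10.62, 10.52 and 10.62 in hypoxia, against 10.43, 9.99 and 10.05 in normoxia. Both exchanger genes were higher in every hypoxia brain, each by 0.43 (limma adjusted p = 0.72), and groups that do not overlap with hypoxia higher were found in 4 of the 32 and in 2.33% of all genes. The other 2 were slc12a2, a sodium-potassium-chloride cotransporter gene, with means of 9.04 in hypoxia and 8.77 in normoxia, and slc24a2, a potassium-dependent sodium-calcium exchanger gene, with 6.32 in hypoxia and 6.11 in normoxia, both named after their values were seen.

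Of genes for potassium uptake and chloride export, 8 of 12 measured had a lower mean, with a median of -0.18. Over all genes the share was 61.0% and the median -0.08. The 2 at an unadjusted p under 0.05 were both inward rectifier potassium channel genes of the Kir4.1 type, through which glia take up potassium. By that rule 5.76% of all genes were lower and 0.903% higher. kcnj10a read 7.89, 7.78 and 8.13 in hypoxia, against 9.21, 8.24 and 8.92 in normoxia, a difference of -0.86 (limma adjusted p = 0.72). kcnj10b read 10.27, 10.23 and 10.36 in hypoxia, against 11.80, 10.42 and 11.39 in normoxia, a difference of -0.92 (limma adjusted p = 0.72). Both had no overlap, with hypoxia 3 nearest to normoxia 2, as had kcnj2a, named after its values were seen, with means of 7.80 in hypoxia and 7.97 in normoxia, where 9.01% of all genes were lower without overlap. Without normoxia 1 the differences of kcnj10a and kcnj10b were -0.65 and -0.62, and without normoxia 2 they were -1.13 and -1.31. They were -0.65 and -0.73 after quantile normalization, and -0.57 and -0.54 with array spread as a covariate.

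Cell type markers had lower means in hypoxia in several lists, as did most genes of the table. Of 12 measured markers of radial glia and astroglia 10 had a lower mean in hypoxia, with a median difference of -0.45, and their mean level was 9.25 to 9.62 in hypoxia and 9.45 to 10.32 in normoxia. A lower mean in hypoxia was found for 61.0% of all genes and for 76.8% of those above the median level. The median marker of the erythrocyte, skeletal muscle, ependyma and choroid plexus, and pineal and photoreceptor lists lay below that level. The count and median were 10 of 12 and -0.43 for microglia and macrophage, 6 of 7 and -0.30 for oligodendrocyte and myelin, 8 of 9 and -0.22 for endothelium and pericyte, and 4 of 5 and -0.42 for erythrocyte markers. The mean level of endothelium and pericyte markers was 7.59 to 7.68 in hypoxia and 7.87 to 7.91 in normoxia, without overlap. That of erythrocyte markers was 6.57 to 6.81 in hypoxia and 6.84 to 7.31 in normoxia, also without overlap. Of 14 neuron markers 10 had a lower mean, with a median of -0.12. Other lists leaned less or the other way. The count and median were 5 of 9 and -0.09 for pituitary and 5 of 8 and -0.23 for ependyma and choroid plexus. They were 3 of 13 and 0.09 for skeletal muscle and 2 of 9 and 0.32 for pineal and photoreceptor markers. Mean levels of pineal and photoreceptor markers were 8.21, 6.39 and 8.19 in hypoxia 1 to 3, against 6.92, 6.84 and 8.08 in normoxia 1 to 3. These were high in hypoxia 1, hypoxia 3 and normoxia 3, so the groups overlapped. The part of glial, vessel or blood RNA content in the values of atp1a1b, atp1b2b, atp1b4, kcnj10a and kcnj10b was not tested.

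**Figure D4:**
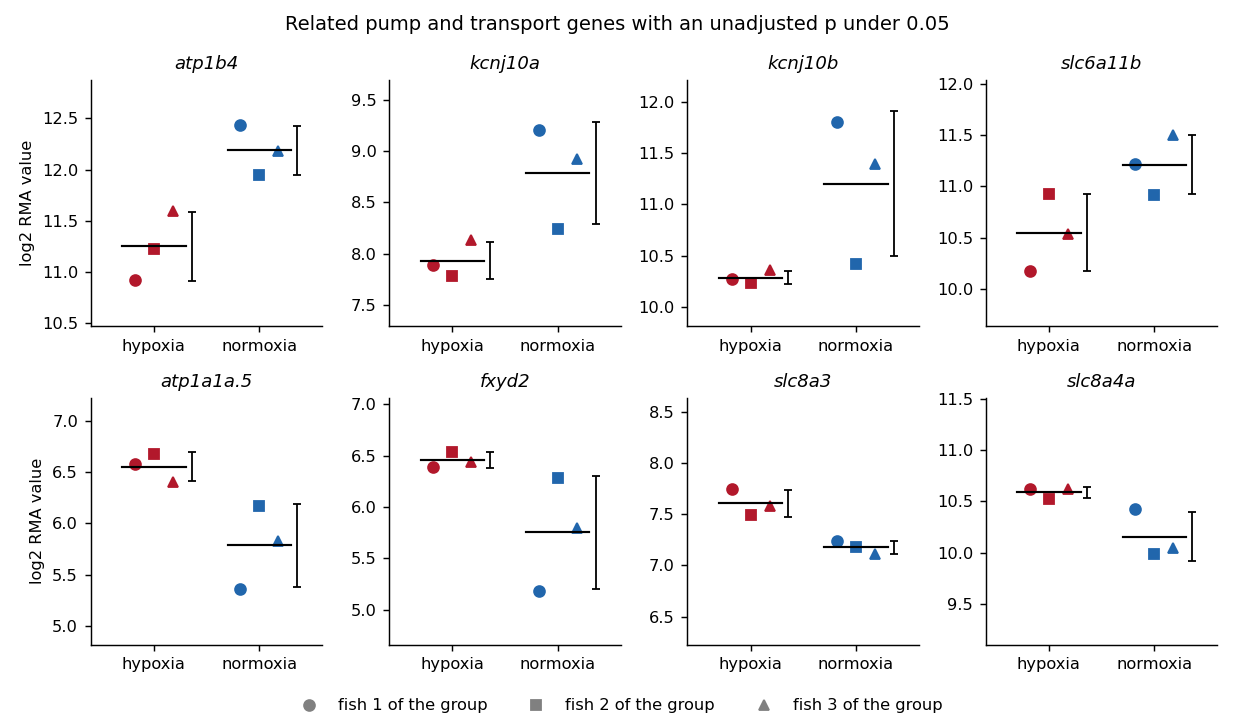
Log2 RMA values in each brain of 8 related genes with an unadjusted limma p under 0.05, with hypoxia on the left in red and normoxia on the right in blue, lines for means and bars for the SD of 3 fish. atp1b4, kcnj10a and kcnj10b are lower in every hypoxia brain, slc6a11b overlaps, and atp1a1a.5, fxyd2, slc8a3 and slc8a4a are higher in every hypoxia brain.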

How the data were processed

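Per the series' design text, the authors processed the scans in Affymetrix Expression Console with RMA (background correction, then quantile normalization), and the submitters' processing notes name both. Versions, filters and the probe set level are not stated there. Deposited values are log2 values, as judged from their range of 1.62 to 14.34. Despite the quantile step named there, their distributions differed between arrays. The median over all rows ran from 6.28 in normoxia 1 to 6.60 in normoxia 2, and the SD over genes from 1.25 in hypoxia 1 to 1.60 in normoxia 1. The median over genes ran from 7.32 in hypoxia 2 to 7.60 in normoxia 1. The setting of equal array medians used these medians over genes. The cause was not tested, and the main fit used the values as deposited. Per the labels, each array took 300 ng of RNA, and the minimum integrity number was 7.0. Of 75212 rows, 20806 named 1 gene, 855 several and 53551 were unnamed here. Rows of a gene were averaged (19260 genes), and symbols followed the Entrez identifier (20323 rows matched, 1 changed).

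Groups came from sample titles. With R 4.3.3, limma 3.58.1 (lmFit, eBayes, no covariate, 6 arrays) tested log2 values of all genes, without a filter on dim ones. The number of arrays limits precision. On simulated data for this comparison over 19260 genes, the recovered share was 80% of 100 genes changed by 2 log2 units and 25% of 100 changed by 1, with 4 unchanged genes called. The simulated noise was independent between genes and of equal size in all 6 arrays. The real arrays had unequal spread and shifts shared by many genes, so these shares may not hold for them.

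The text names all measured subunit genes and the 3 nearest profiles. From each related list it names the members with an unadjusted p under 0.05 (otherwise the 3 with the smallest p). The remaining measured pump partners were added as a whole list, and fxyd3 from outside it. The genes slc12a2, slc24a2 and kcnj2a were added for their lack of overlap. Cell type markers are given by list, as counts, medians or mean levels, and not gene by gene. Members and lists were chosen with earlier results of these data known. Alternatives were other scalings, array spread as a covariate, a filter on dim genes, the brightest row, other moderation, all rows, a replicate block, other thresholds and each array left out. Leaving out hypoxia 3 and normoxia 3 together was chosen after seeing the data. Whether replicate numbers pair the fish cannot be told from these values. Deviations from group means over all genes correlated at -0.34, 0.10 and 0.20 for numbers 1, 2 and 3. The correlation was 0.42 for hypoxia 1 with normoxia 2, the 2 arrays of smallest spread, so such correlations cannot decide on pairing.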

Additional observations from a re-analysis of the deposited data

How the results depend on the processing

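No subunit gene passed the adjusted threshold of 0.05 in any alternative, nor at an adjusted p of 0.1. In the main fit 1 passed an unadjusted limma p of 0.05, and counts by that rule in the alternatives are not given here. With a replicate block, whose numbers are not known to pair the fish, 0 subunit genes passed, all 8 had a lower mean and the median difference was -0.28. Signs turned for atp1b1a with equal array medians (0.0067), after quantile normalization (0.0756) and without hypoxia 1 or normoxia 3 (0.055 to 0.1017, within a range from -0.315 with each array left out). They turned for atp1a3b with array spread as a covariate (0.0275), and for atp1b3a with array spread as a covariate (0.0757), equal medians (0.0817), quantile normalization (0.0753), its dimmer row (0.05) and some arrays left out (range -0.1808 to 0.03). The number of all genes past the threshold, 1 as reported, was 0 without genes of mean below 6, with an intensity trend, or without hypoxia 3 and normoxia 3 together, 2 after quantile normalization, and 0 to 17 with 1 array left out, where 17 came without normoxia 2. For calcium pumps the count with a lower mean, 4 as reported, was 1 with array spread as a covariate, 0 with equal medians or quantile normalization, and 1 to 7 with 1 array left out. For carriers driven by the sodium gradient it was 8 with equal medians, where 40.9% of all genes were lower, against 14 as reported. For potassium uptake and chloride export it was 5 without hypoxia 3 and normoxia 3 together and 6 to 9 with 1 array left out, against 8 as reported. The cause of these changes was not tested, beyond the fewer genes or arrays that some alternatives hold. The value of atp1a3b minus atp1a1b, 0.03 as reported, was 0.26 with array spread as a covariate and ran from -0.1767 to 0.1833 with 1 array left out. Alpha minus beta, 0.10 as reported, ran from -0.0243 to 0.2028 with 1 array left out and was 0.27 without hypoxia 3 and normoxia 3 together. Signal over background is not given in the table, so no probe could be called absent.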

Other observations

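Within each duplicated beta pair, the b copy was lower relative to the a copy in the hypoxia group, a comparison picked after the values were seen and given without a test. The value of atp1b2b minus atp1b2a, relative to its mean over the 6 brains, was -0.65, -0.06 and -0.06 in hypoxia, against 0.26, 0.28 and 0.21 in normoxia, with no overlap and a difference of means of -0.51. For atp1b1b minus atp1b1a it was -0.40, -0.05 and -0.20 in hypoxia, against 0.73, 0.19 and -0.26 in normoxia, which overlap. For atp1b3b minus atp1b3a it was -0.50, -0.14 and 0.13 in hypoxia, against 0.39, 0.18 and -0.06 in normoxia, which overlap. In hypoxia 1, the array of smallest spread, all 3 contrasts were at their lowest. The part of array spread in them was not tested.

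fxyd7, which encodes a pump regulator that is brain-specific in mammals, had the largest SD over the 6 arrays among the pump partners. It read 6.78, 8.36 and 9.68 in hypoxia, against 7.27, 6.85 and 10.03 in normoxia. The difference was 0.22, with a 95% confidence interval of -1.76 to 2.21, and it ran from -0.48 without hypoxia 3 to 1.21 without normoxia 3. The 2 brains with the highest fxyd7, hypoxia 3 and normoxia 3, were also those with the highest mean level of pituitary markers, 9.72 and 10.32, against 6.34 to 7.15 in the other 4. Of the subunit genes, atp1b1a was also highest in these 2 brains, at 9.55 and 9.79, against 8.81 to 9.20 in the other 4. The part of pituitary tissue in fxyd7 and atp1b1a was not tested.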
